A study of Homo sapiens with 4 samples.

Results

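The genes described here are 9 genes of matrix proteolysis and plasminogen activation (MMP1, MMP3, MMP14, PLAU, PLAUR, PLAT, TIMP1, TIMP2 and HTRA3), chosen by symbol from a table of 16834 genes, in which all 9 were found. RNA was sequenced from cells labelled MIA PaCa-2, an established line from a human pancreatic ductal adenocarcinoma described in the labels as wild type. The 4 groups were a control and cells given 1 µM NBT, 5 µM trametinib or both at these doses, each for 12 h. NBT is neobractatin, a natural compound of Garcinia bracteata, and trametinib inhibits the kinase MEK. The control is labelled only as such. Each group was a single library, so no value below has a replicate check and the variation between cultures was not measured. The estimated read counts summed to between 18776212 and 19614763 per library.

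The label of the cell line was checked against marker genes. Of 6 epithelial markers 5 were in the table, each with more than 3 reads in every library, and their summed level ran from 7274 TPM (a level scaled to transcript length and to the size of the library) in the control to 6110 under NBT, 3564 under trametinib and 2765 under cotreatment. KRT8 and KRT18, keratin genes of simple epithelia, fell under cotreatment (log2 ratios to control of -1.31 and -1.62, on the scale described below), and KRT18 also under trametinib (-1.56). These 2 genes made up most of the sum, at 3799 and 3142 TPM in the control. KRT7 also fell under cotreatment (-1.27), whereas EPCAM (-0.11) and CDH1 (-0.54) did not pass the limits there or under trametinib. Some genes, picked after their values had been seen, went against the label. MIA PaCa-2 is known for a homozygous deletion that removes CDKN2A and MTAP and for high vimentin, yet CDKN2A stood at 249 to 342 TPM, MTAP at 13.2 to 19.9 TPM and VIM at 11.5 to 26.4 TPM, while the basal keratin gene KRT5 stood at 634 to 3123 TPM. KRT5 was highest with trametinib (3123 TPM, against 1180 TPM in the control). The cells are therefore called by their label only, given these CDKN2A, MTAP, VIM and KRT5 levels. Of 8 fibroblast markers 4 were in the table, with a summed level of 0.51 to 1.9 TPM, and COL1A2 was at 0 in all libraries but the combination. The 3 endothelial markers in the table summed to 0.29 to 0.67 TPM. The acinar marker in the table, CPA1, had 1 read in the control and 0 elsewhere. The 5 leukocyte markers summed to 99.6 to 142 TPM, most of it CD68 (91.9 to 139 TPM). PTPRC, the pan-leukocyte marker, had 8 to 17 reads, and CD3E had 0 reads in the control and NBT libraries, 55 with trametinib and 29 with the combination. The part of other cells in the results below was not tested.

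Matrix metalloproteinases are zinc enzymes that cleave collagens and other matrix proteins, and most are secreted as proenzymes. Plasmin, made from plasminogen by the urokinase-type activator (PLAU) or the tissue-type activator (PLAT), degrades fibrin and can activate some of these proenzymes. The urokinase receptor (PLAUR) holds urokinase at the cell surface, and the TIMP proteins bind and inhibit metalloproteinases. In pancreatic cancer this system is known for its part in invasion.

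In the control library the order of the 9 genes by TPM, the scale on which levels of different genes can be compared, was TIMP1 (602), MMP14 (197), PLAU (188), PLAUR (139), TIMP2 (55.8), PLAT (7.93), MMP1 (1.93), MMP3 (0.58) and HTRA3 (0). With 1 library there is no spread by which neighbours in this order, such as MMP14 and PLAU, could be told apart. TIMP1 was the highest of the 9 in every library. The genes thus fell into 5 at 55.8 TPM or more and 4 at 7.93 TPM or less, and the lower 4 rested on 0 to 223 reads.

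**Figure D1:**
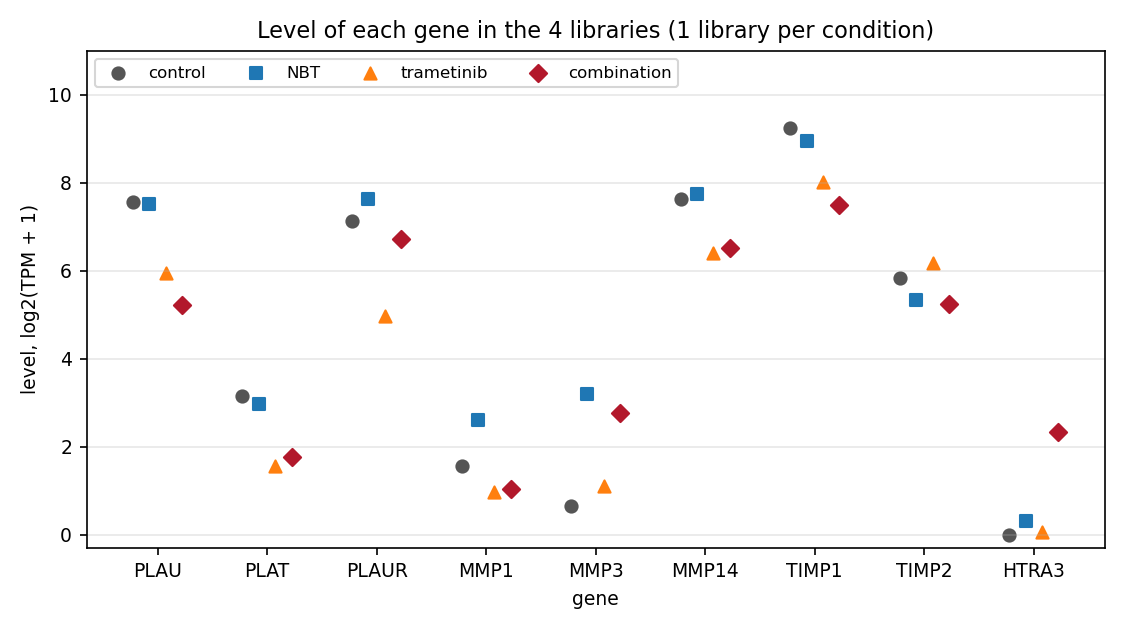
Level of each of the 9 genes as log2(TPM + 1) on the vertical axis, with 1 point for each library (control, NBT, trametinib, combination). The trametinib and combination points lie below the control for PLAU, PLAT, MMP14 and TIMP1, PLAUR is low with trametinib only, MMP3 is high in both libraries with NBT, and HTRA3 is above 1 only in the combination library, at 2.33.

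Counts were compared between 2 libraries with 0.5 reads added and scaling to the library sums. A gene is said to have risen or fallen when its absolute log2 ratio was at least 1 and the two-sided binomial test, run exactly on both counts with Benjamini-Hochberg adjustment over all genes with a read, gave an adjusted value of at most 0.05, which are the limits in the methods of the study. Since such a test sets 1 library against another, no p-value is printed. The 95% intervals (Clopper-Pearson) cover counting error only, because 1 library per group holds no variation between cultures. They treat every read as an independent molecule, so reads copied by PCR would make them too narrow. In RNA from a whole culture, fewer cells that express a gene and less RNA per cell cannot be told apart.

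Trametinib alone was accompanied by lower values of the plasminogen activators, their receptor, MMP14 and TIMP1. Of the 9 genes 5 fell and 0 rose, against 5.96% of 16197 genes past the limits (3.82% higher and 2.15% lower). The median log2 ratio was -1.21 over the 8 genes other than HTRA3 and 0.08 over all genes tested. In the NBT library 2 of the 9 genes rose (MMP1 and MMP3) and 0 fell, against 2.61% of 15888 genes past the limits (1.6% higher and 1.01% lower), with a median of 0.10 over the 8 genes and -0.01 over all. In the combination library 2 rose (MMP3 and HTRA3) and 4 fell (PLAU, PLAT, MMP14 and TIMP1), against 8.42% of 16229 genes (4.73% higher and 3.69% lower), with medians of -0.91 and 0.05. All 3 comparisons share the control library. The 9 genes were chosen with results of these data known, so these shares describe them and do not test them.

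**Figure D2:**
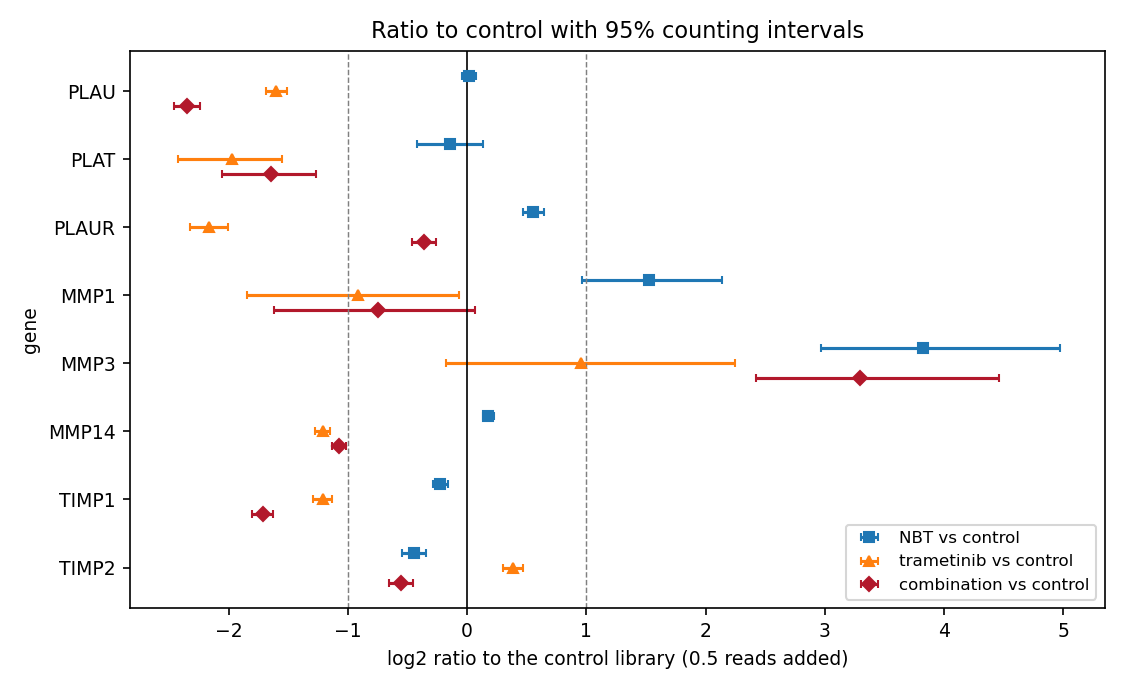
Log2 ratio to the control library (horizontal axis, 0.5 reads added) for 8 of the genes, with bars for the 95% counting interval and dashed lines at the limits of -1 and 1. HTRA3 is left out because it had 0 reads in the control, and the PLAU, PLAT, PLAUR, MMP14 and TIMP1 points for trametinib lie left of -1, whereas those for NBT lie between -0.23 and 0.55.

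PLAU, which encodes the urokinase-type plasminogen activator (NCBI Gene 5328; chromosome 10, positions 73908832 to 73917494 of GRCh38.p14), gave 4196 reads in control cells, 4393 under NBT, 1398 under trametinib and 862 under cotreatment. The libraries with trametinib were low and that with NBT was level with the control. The log2 ratio to control was 0.02 (from -0.05 to 0.08) under NBT, -1.60 (from -1.69 to -1.51) under trametinib and -2.35 (from -2.45 to -2.24) under cotreatment, a fall to a level 5.09 times lower. The combination library also lay below the trametinib library, by a log2 ratio of -0.75 (from -0.87 to -0.62), short of the limit.

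PLAT, the gene of tissue-type plasminogen activator (NCBI Gene 5327), was far lower in level than PLAU, at 7.93 TPM against 188 TPM in the control. It gave 223 reads in control cells, 209 under NBT, 57 under trametinib and 74 under cotreatment. It fell in both libraries with trametinib, by log2 ratios of -1.97 (from -2.43 to -1.56) and -1.65 (from -2.05 to -1.27), and its ratio with NBT was -0.14 (from -0.42 to 0.14). The interval of the combination against trametinib alone, from -0.19 to 0.85, includes 0.

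PLAUR, the gene of the urokinase receptor (NCBI Gene 5329, chromosome 19, positions 43646095 to 43670169), fell with trametinib alone, as PLAU did. Unlike PLAU, it did not pass the limits with the combination. It gave 1726 reads in control cells, 2622 under NBT, 389 under trametinib and 1404 under cotreatment. Only the library with trametinib alone stood far below the control, at a log2 ratio of -2.16 (from -2.33 to -2.003), and the combination library stood at -0.36 (from -0.46 to -0.26). The ratio with NBT was 0.55 (from 0.47 to 0.64), short of the limit. Set against trametinib alone, the combination library was higher by a log2 ratio of 1.80 (from 1.64 to 1.97), a rise of 3.49 times. Its estimated counts were not whole in any library, as happens when a read matches more than 1 gene. PLAU and PLAUR thus lay on opposite sides of 0 in that pair of libraries.

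The 250 bases before a RefSeq start are shown for the receptor PLAUR, its ligand PLAU, the inhibitor TIMP1 and the serine protease gene HTRA3, as examples of different roles. For PLAUR, TIMP1 and HTRA3 that start lies at the edge of the gene, whereas both starts listed for PLAU lie inside its span. The promoter table (RefSeq, build GRCh38.p14) matched 5 of the 9 genes, and MMP1, MMP3, PLAT and TIMP2 were not among them. The motifs searched on both strands were TGANTCA (AP-1, bound by FOS and JUN family proteins), its variant TGAGTAA, TGACNNNGC (the core of the antioxidant response element, which can overlap an AP-1 motif) GGGCGG (the GC box) and GGAA (the core bound by ETS factors). Capitals mark matches to all but the last, which 92.7% of windows held.
PLAUR, chr19:43670170-43670419, minus strand: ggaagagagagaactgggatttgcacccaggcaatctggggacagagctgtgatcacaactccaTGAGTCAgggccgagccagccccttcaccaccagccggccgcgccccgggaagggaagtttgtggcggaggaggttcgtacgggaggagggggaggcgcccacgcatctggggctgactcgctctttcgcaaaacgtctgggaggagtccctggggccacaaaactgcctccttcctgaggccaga
PLAU, chr10:73910882-73911131, plus strand: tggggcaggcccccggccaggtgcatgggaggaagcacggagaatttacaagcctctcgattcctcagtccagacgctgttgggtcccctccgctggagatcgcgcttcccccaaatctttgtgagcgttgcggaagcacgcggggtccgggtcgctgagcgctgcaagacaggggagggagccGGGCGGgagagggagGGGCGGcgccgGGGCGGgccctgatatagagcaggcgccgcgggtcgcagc
TIMP1, chrX:47582186-47582435, plus strand: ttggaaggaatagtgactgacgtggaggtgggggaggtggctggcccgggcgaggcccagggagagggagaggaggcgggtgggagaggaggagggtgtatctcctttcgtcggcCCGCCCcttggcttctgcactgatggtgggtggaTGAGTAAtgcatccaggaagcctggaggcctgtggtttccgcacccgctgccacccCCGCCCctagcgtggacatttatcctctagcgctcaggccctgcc
HTRA3, chr4:8269504-8269753, plus strand: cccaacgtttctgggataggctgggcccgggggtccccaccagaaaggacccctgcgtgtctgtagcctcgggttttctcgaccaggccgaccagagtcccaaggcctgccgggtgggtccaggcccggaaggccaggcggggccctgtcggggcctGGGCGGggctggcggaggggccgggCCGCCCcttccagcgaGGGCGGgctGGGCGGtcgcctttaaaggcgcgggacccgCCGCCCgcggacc
The PLAUR window held 1 match to TGANTCA, starting 186 bases before the gene start, and 6.57% of all 35116 windows of this length held one. The TIMP1 window held 1 match to TGAGTAA at 101 bases before the start, found in 2.21% of windows, and 2 GC boxes. The PLAU window held 3 GC boxes and the HTRA3 window 5, a motif that 42.6% of windows held. MMP14 had 1 GC box. The core TGACNNNGC, found in 10.9% of windows, was in none of the 4 windows shown, and PLAU had 1 match in the window of its other listed start, which is not shown. A match describes the letters only, and letters absent from these windows say nothing about the factors.

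MMP1 and MMP3 encode interstitial collagenase and stromelysin-1. They are neighbours on chromosome 11, at positions 102789919 to 102798160 and 102835801 to 102843609, with 37.6 kilobases between them. MMP1 (NCBI Gene 4312) was counted at 34 reads in control cells, 102 under NBT, 18 under trametinib and 21 under cotreatment, so that the NBT library alone stood above the control. It rose with NBT by a log2 ratio of 1.52 (from 0.96 to 2.14). The ratio was -0.91 (from -1.84 to -0.07) under trametinib and -0.75 (from -1.62 to 0.07) under cotreatment. Against NBT alone, the combination library was lower by -2.27 (from -3.05 to -1.61).

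MMP3 (NCBI Gene 4314) gave 10 reads in control cells, 153 under NBT, 20 under trametinib and 107 under cotreatment. Both libraries with NBT were high and both without it were low. The log2 ratio to control was 3.82 (from 2.97 to 4.97) under NBT, 0.95 (from -0.18 to 2.25) under trametinib and 3.29 (from 2.42 to 4.46) under cotreatment. It rose against trametinib alone as well, by 2.34 (from 1.67 to 3.14). Its estimated count was not a whole number in the 2 libraries with NBT, as happens when a read matches more than 1 gene, so its count is less certain there. MMP10, a close paralog, had estimated counts of 2, 11.3, 7 and 5.29 in the control, NBT, trametinib and combination libraries. MMP1 and MMP3 therefore differed in the combination library, where MMP3 stayed high and MMP1 did not. Both genes remained low in level, at most 8.24 TPM.

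MMP14 (NCBI Gene 4323; chromosome 14, positions 22836585 to 22847758) encodes a membrane-anchored metalloproteinase that activates pro-MMP2 on the cell surface. At 197 TPM in the control it stood beside PLAU (188 TPM), giving 6927 reads in control cells, 8119 under NBT, 3019 under trametinib and 3442 under cotreatment. It fell with trametinib, by a log2 ratio of -1.21 (from -1.27 to -1.15), and with the combination, by -1.07 (from -1.13 to -1.01). The ratio under NBT was 0.18 (from 0.13 to 0.23), and it was 0.14 (from 0.07 to 0.21) when NBT was added to trametinib.

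TIMP1 (NCBI Gene 7076; chromosome X, positions 47582436 to 47586789), a secreted inhibitor of metalloproteinases, gave 4280 reads in control cells, 3788 under NBT, 1868 under trametinib and 1365 under cotreatment. It fell with trametinib, by a log2 ratio of -1.21 (from -1.29 to -1.13), and with the combination, by -1.71 (from -1.80 to -1.62). The ratio with NBT was -0.23 (from -0.29 to -0.16). TIMP2 (NCBI Gene 7077; chromosome 17, positions 78852977 to 78925387), whose protein inhibits metalloproteinases and also takes part in the activation of pro-MMP2 by MMP14, had 1939, 1475, 2552 and 1383 reads in the control, NBT, trametinib and combination libraries. It was highest with trametinib alone, where TIMP1 was reduced. The NBT and combination libraries were the lowest and were not told apart (log2 ratio -0.11, from -0.21 to 0.00). None of its ratios to control passed the limit of 1: they were -0.44 (from -0.54 to -0.35), 0.38 (from 0.30 to 0.47) and -0.55 (from -0.65 to -0.45) in the same order. The combination lay below trametinib alone by -0.93 (from -1.03 to -0.84), also short of the limit.

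HTRA3 (NCBI Gene 94031; chromosome 4, positions 8269754 to 8307098), which encodes a secreted serine protease of the HtrA family, gave 0 reads in control cells, 6 under NBT, 1 under trametinib and 104 under cotreatment. Nearly all of its reads were thus in the combination library, where its level was still only 4.04 TPM. A count of 0 in the control allows up to 3 reads, and against that floor the 104 reads of the combination library, taken as exact, were at least 33.2-fold higher. With the counting error of both libraries the lower 95% limit was 26.5-fold. Against trametinib alone, with its single read, the ratio was 100 (from 17.6 to 4006), and against NBT alone 17.2 (from 7.63 to 47.9). The log2 ratio against control moved from 7.64 to 4.38 when 5 reads were added in place of 0.5, so the size of the difference from the control depends on the reads added. Of the other HTRA genes, HTRA2 and HTRA4 were in the table. HTRA2, which encodes a mitochondrial protease, had 410 to 477 reads and HTRA4 19 to 27, and neither passed the limits in any comparison.

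Each gene in the combination library was set against the sum of the log2 ratios of the single drugs. A departure was an absolute difference of at least 1, in genes with at least 50 reads in at least 1 library. Of the 9 genes 4 departed, against 2.33% of 11367 genes (0.897% above the sum and 1.43% below it). MMP1, MMP3 and HTRA3 reached 50 reads only in libraries where they were high, so this count is a description and nothing is read from it. PLAUR lay above the sum by 1.25 (from 1.06 to 1.43), as the sum was -1.61 and the combination -0.36. MMP1 lay below it by -1.35 (from -2.41 to -0.30) and MMP3 by -1.48 (from -2.61 to -0.35), wide intervals that reflect their low counts. HTRA3 departed by 2.42, but its interval, from -2.33 to 7.18, includes 0. For MMP14 the combination equalled the sum within counting error (-0.04, from -0.12 to 0.04), and PLAU lay below it by -0.76 (from -0.90 to -0.63). The values for PLAT, TIMP1 and TIMP2 were 0.47, -0.28 and -0.49. These intervals cover counting error alone and hold no variation between cultures.

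**Figure D3:**
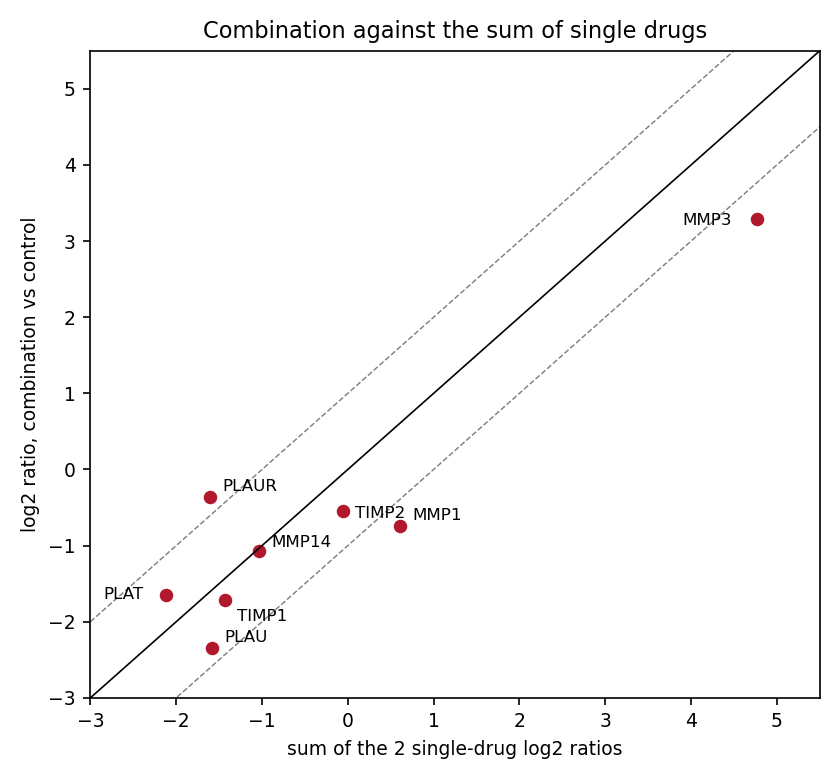
Log2 ratio of the combination to the control (vertical axis) against the sum of the log2 ratios of NBT and trametinib (horizontal axis) for 8 genes, with the line of equality and dashed lines 1 unit away. PLAUR lies above the upper dashed line, MMP1 and MMP3 lie below the lower one, and MMP14 lies on the line of equality.

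The remaining comparisons leave the control out. Against the trametinib library, the combination library had 3 of the 9 genes higher (MMP3, PLAUR and HTRA3) and 0 lower, with 6.11% of 16343 genes past the limits (2.56% higher and 3.55% lower). Against the NBT library it had 5 lower (MMP1, MMP14, PLAU, PLAT and TIMP1) and 1 higher (HTRA3), with 4.36% of 16250 genes past the limits (2.38% higher and 1.99% lower). The log2 ratios of the combination to NBT alone were -2.36 (from -2.47 to -2.26) for PLAU, -1.25 (from -1.31 to -1.19) for MMP14, -1.50 (from -1.91 to -1.12) for PLAT and -1.49 (from -1.58 to -1.40) for TIMP1. PLAUR stood at -0.91 (from -1.01 to -0.82) in that pair. PLAU, PLAT, MMP14 and TIMP1 were thus past the limits with trametinib both in the absence and in the presence of NBT. When cultures were assumed to vary by a coefficient of 0.2 (negative binomial test), only PLAU of these 4 passed in both comparisons, PLAT passed without NBT only, TIMP1 with NBT only, and MMP14 in neither.

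The rest of the plasminogen system was described with a list of 24 genes, 22 of them in the table. With trametinib 5 of 22 fell and 0 rose, against 5.96% of all genes past the limits (median log2 ratio -0.28, against 0.08 over all genes). With NBT 2 rose and 1 fell, against 2.61% of all genes (median -0.02, against -0.01). With the combination 0 rose and 3 fell, against 8.42% of all genes (median -0.17, against 0.05). Plasminogen itself (PLG) had 0 or 1 read in each library. SERPINE2, which encodes a protease inhibitor that acts on urokinase and thrombin, had 624, 1187, 297 and 1132 reads in the control, NBT, trametinib and combination libraries, falling with trametinib (-1.08) and rising when NBT was added to it (1.88). The genes that rose with NBT, outside the rule for named genes and picked after their values were seen, were SERPINB2, which encodes an inhibitor of plasminogen activators (98 to 210 reads, 1.05), and SERPINB8 (630 to 1357 reads, 1.06).

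The gene of tissue factor (F3), the cell-surface starter of coagulation, was the most abundant gene named from this list, giving 19490 reads in control cells, 11305 under NBT, 7099 under trametinib and 2798 under cotreatment. Its log2 ratio to control was -1.47 with trametinib and -2.86 with the combination. F2R, the gene of a thrombin receptor, fell with NBT (from 4144 to 2028 reads, -1.08) and with the combination (1456 reads, -1.57), and had 4158 reads with trametinib. CDCP1, which encodes a membrane protein cleaved by plasmin, fell with trametinib (from 3919 to 1504 reads, -1.39) and had 2514 reads with the combination. F12, the gene of coagulation factor XII, fell with trametinib (from 270 to 121 reads, -1.17) and with the combination (133 reads, -1.08).

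A list of 16 genes of AP-1, ETS and ATF transcription factors was described, families whose members are known to act on protease promoters. With trametinib 6 of the 16 fell and 1 rose, against 5.96% of all genes past the limits (median -0.26, against 0.08 over all genes). With the combination 4 fell and 1 rose, against 8.42% of all genes (median 0.21, against 0.05). With NBT 1 rose and 0 fell, against 2.61% of all genes (median 0.09, against -0.01). FOSL1 gave 11889 reads in control cells, 12386 under NBT, 1268 under trametinib and 4000 under cotreatment. It fell with trametinib (-3.24) and with the combination (-1.63) and rose when NBT was added to trametinib (1.61). FOS had 85, 84, 14 and 102 reads in the same order and FOSB 111, 88, 42 and 87, both falling with trametinib (-2.57 and -1.40). ETV4 and ETV5, which encode ETS factors, fell in both libraries with trametinib, ETV4 by -2.34 and -2.43 and ETV5 by -4.49 and -4.03. ATF3, the gene of a stress-induced factor, rose with trametinib (from 718 to 2329 reads, 1.68) and with the combination (6091 reads, 3.02).

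**Figure D4:**
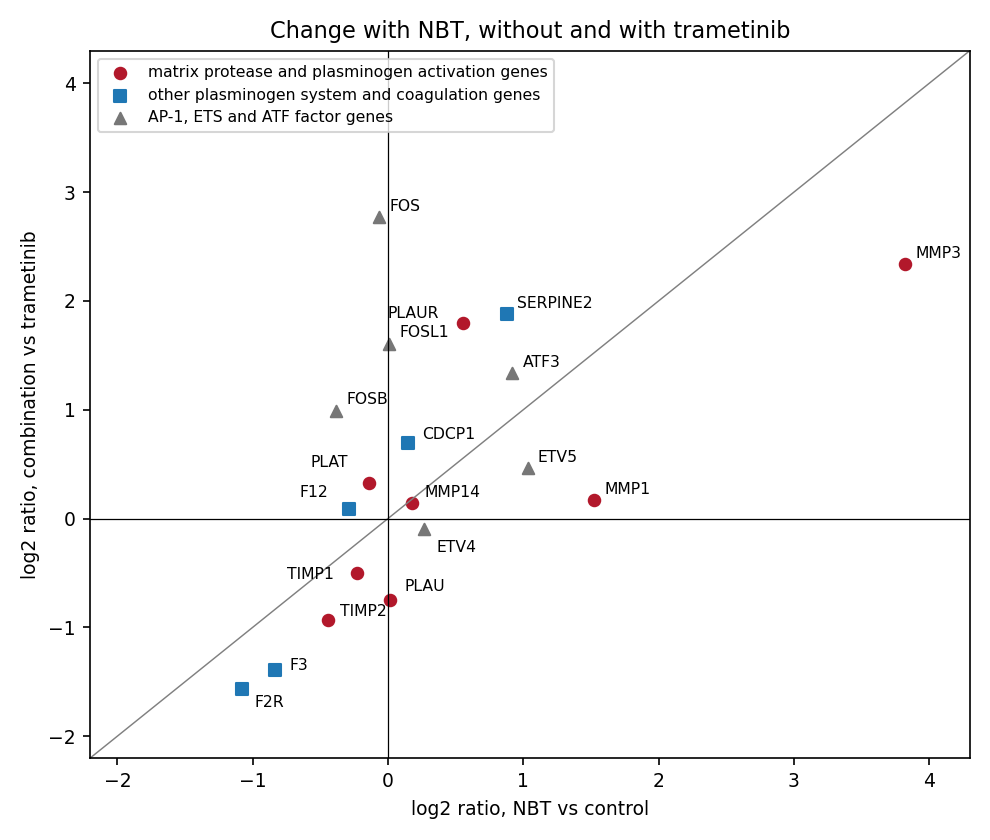
Log2 ratio of NBT to control (horizontal axis) against log2 ratio of the combination to trametinib (vertical axis), 2 pairs that share no library, for 8 genes of the set and for named genes of the plasminogen system and of transcription factors, with the line of equality. PLAUR, SERPINE2, FOSL1 and FOS lie above the line of equality, with vertical values from 1.61 to 2.77, and MMP3 lies far right on the horizontal axis at 3.82. PLAU, TIMP1, TIMP2, F3, F2R and ETV4 lie below 0 on the vertical axis.

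Genes with the most similar pattern were found by the Euclidean distance over the 3 log2 ratios to control, among genes with at least 100 reads in 1 library. Since all 3 ratios share the control library, likeness of this kind is a description. PLAUR was closest to MAFF (0.27), MYC (0.45) and MICAL2 (0.55). PLAU was closest to CCN2 (0.23), ADAMTS6 (0.50) and HMGA2 (0.51). MMP14 lay near C16orf74 (0.14), BCL2L1 (0.14) and ELK3 (0.16), and PLAT near PLEK2 (0.20), CD274 (0.26) and NEDD4L (0.28). TIMP1 lay near SIPA1L3 (0.11), SLC45A3 (0.21) and RGS19 (0.24), and TIMP2 near FAT4 (0.025), TCIRG1 (0.032) and MARCKS (0.038). The low-count genes had more distant neighbours, SPRED3 (0.60), PALM2AKAP2 (0.60) and THBD (0.83) for MMP1 and SESN2 (0.97), HERPUD1 (1.08) and ADM2 (1.08) for MMP3. HTRA3 had LURAP1L (1.23), HMOX1 (1.81) and MAP2 (2.94), at distances that depend on the reads added to its control count of 0.

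The ratio between genes within a library was taken from TPM values. PLAU stood at 1.36 times PLAUR in the control, 0.929 times under NBT, 2.02 times under trametinib and 0.346 times under cotreatment. The ratio was thus below 1 in both libraries with NBT, but under NBT alone the levels were 182 and 196 TPM, a gap that 1 library cannot tell from none. PLAU stood at 23.8, 26.8, 31.0 and 15.2 times PLAT in the same order. TIMP1 stood at 3.06, 2.30, 3.07 and 1.96 times MMP14, so both fell to a like extent with trametinib alone. TIMP2 stood at 0.284, 0.184, 0.857 and 0.407 times MMP14, highest with trametinib alone. TIMP1 went from 10.8 times TIMP2 in the control to 3.59 times with trametinib and 4.80 times with the combination, and was 12.5 times with NBT. MMP3 moved from 0.301 times MMP1 in the control to 1.62 times under NBT, 1.2 times under trametinib and 5.49 times under cotreatment, ratios that rest on as few as 10 reads.

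**Figure D5:**
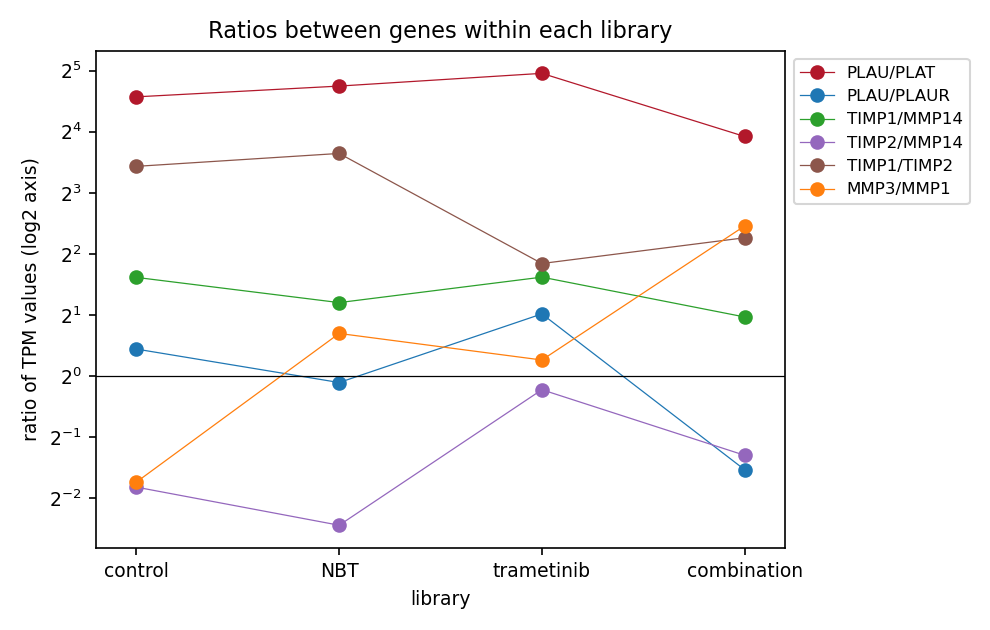
Ratio of TPM values between 2 genes of the set within each library (vertical axis, log2 scale) for 6 pairs, with thin lines joining the values of a pair across the control, NBT, trametinib and combination libraries. PLAU/PLAUR is lowest with the combination (0.346) and highest with trametinib (2.02), and MMP3/MMP1 is highest with the combination (5.49).

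Estimated counts of RefSeq transcripts showed which forms carried these levels. Of 4 PLAU transcripts NM_002658.6 held 83.7% of the reads in the control, 88.1% under NBT, 88.9% under trametinib and 97.4% under cotreatment. Of 10 PLAUR transcripts NM_002659.4 held 68.5% to 78.5%. TIMP1 was carried by NM_003254.3 at 94.7% to 96.0%. For PLAT the estimate moved between NM_033011.4 (70.6% in the control, 0 with NBT) and NM_000930.5 (29.4% and 75.6%), and for MMP1 the reads of the other 3 libraries were all assigned to NM_002421.4, which held 37.2% in the control. As transcripts of a gene share most of their sequence, these splits at low counts are uncertain. MMP3, MMP14, TIMP2 and HTRA3 had 1 transcript each in the table.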

How the data were processed

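RNA of 4 conditions, 1 library each, was sequenced on the BGISEQ-500 platform. The authors deposited, per gene and per RefSeq transcript, an estimated count without normalization, TPM (which the authors scaled to transcript length and library size) and FPKM, which was not used. The submitters' processing notes name Bowtie2 2.2.5, RSEM 1.2.8 and hg38, without roles. The cell line entries of the labels run from MIA PaCa-2 to MIA PaCa-5 over the libraries, while the titles name MIA PaCa-2 throughout. The labels do not state strand.

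Estimated counts were rounded. Log2 ratios used library sums and 0.5 added reads. The exact binomial test (smaller tail doubled) was run on all genes and tried on simulated libraries like NBT and control. Of 200 genes changed 4-fold, 200 were called, and 0 unchanged genes were called, with 15554 genes tested in all. The changed genes were drawn from those with a mean of at least 50 reads, where a 4-fold change is easily found. The result therefore says nothing of genes with few reads, such as HTRA3. The simulation held counting error only, without variation between cultures. Alternatives were edgeR's TMM factors, DESeq2's size factors, TPM with a pseudocount of 0.1, 5 added reads, summed transcript counts, a limit of 10 counts, other log2 limits and edgeR's negative binomial exact test. Departures from additivity have normal intervals from the counts. The members and lists were chosen with earlier results of these data known. Named genes are the 9 members, at most 6 genes per list (past the limits against control, with at least 100 reads), FOSL1 and the 3 nearest patterns per member, unless stated. A gene that the rule names is not reported here. Software was R 4.3.3 with edgeR 4.0.16 and DESeq2 1.42.0, and Python 3.11.15 with numpy 2.4.6, scipy 1.17.1, pandas 2.3.3 and matplotlib 3.10.9.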

Additional observations from a re-analysis of the deposited data

How the results depend on the processing

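Each condition had 1 library, so counting error is the only error known and genes with few reads (MMP1, MMP3, HTRA3 and PLAT) are the least certain. No paired analysis was possible because each condition has 1 library. With TMM factors, with size factors from the median of ratios, with TPM values, with 5 added reads, with summed transcript counts and with a limit of 10 counts, the number of the 9 genes past the limits was the same in all 5 comparisons, and of 225 recomputed log2 ratios 218 stayed within their counting intervals and 0 of the called ones changed sign. The limit of 10 counts changes no ratio and is not among the 225. Summed transcript counts gave nearly the same ratios as the gene counts, so their part of the 225 checks little. The ratio of PLAU under NBT, which was not past the limits, moved from 0.02 to -0.05 with TPM.

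The counts depended on the variation assumed between cultures, which was not measured. With a negative binomial test at an assumed coefficient of variation of 0.2, 1 of the 9 genes passed with NBT (MMP3) and 3 with trametinib (PLAU, PLAUR and PLAT, without MMP14 and TIMP1), those lost in the combination were MMP14 against control and MMP14 and PLAT against NBT, and over all genes 69 with NBT, 365 with trametinib, 547 with the combination, 302 in the combination against trametinib and 204 in the combination against NBT. With 0.4 the genes of the set numbered 0, 0, 1 (HTRA3), 1 (HTRA3) and 0 in that order, and all genes 4, 22, 51, 14 and 13. With a log2 limit of 2, 1 of the 9 genes passed with NBT, 1 with trametinib, 3 with the combination and 3 in the combination against NBT, and over all genes 116, 352, 401, 252 (combination against trametinib) and 251 (against NBT). Without a log2 limit 6 of the 9 passed with NBT and 7 in the combination against trametinib, and over all genes 5635, 6915, 8056, 7428 and 6079, as the construction of the limit gives. With a limit of 2 on the departure from additivity 1 gene (HTRA3) was past it instead of 4, which shows nothing of its stability, since HTRA3 had 50 reads in the combination library only and its interval includes 0.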

Other observations

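Of 16 further matrix metalloproteinase genes in the table (20 listed), 4 rose and 1 fell with trametinib among 15 tested (against 5.96% of all genes past the limits). With the combination 3 rose and 1 fell among 15 tested (against 8.42%). With NBT 0 passed among the 13 to which the exact binomial test was applied (against 2.61%). MMP2, the gene of gelatinase A, gave 425 reads in control cells, 304 under NBT, 192 under trametinib and 138 under cotreatment, falling with trametinib (log2 ratio -1.16) and with the combination (-1.68). MMP13, which encodes collagenase-3, had 40, 44, 157 and 116 reads in the same order, rising with trametinib (1.95) and with the combination (1.46). The others past the limits had under 100 reads in every library.

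Of 17 ADAM and ADAMTS genes in the table (22 listed), 2 of 16 tested fell with trametinib (against 5.96% of all genes past the limits) and 1 of 16 with NBT (against 2.61%). With the combination 2 rose and 3 fell among 15 tested (against 8.42%). ADAM17, the gene of the main sheddase of growth factor ligands, had 1450, 2192, 1617 and 3463 reads in the control, NBT, trametinib and combination libraries and rose with the combination (1.19). ADAM19 fell with trametinib (from 135 to 25 reads, -2.42) and with the combination (27 reads, -2.36). ADAMTS6 fell with trametinib (from 446 to 185 reads, -1.28) and with the combination (80 reads, -2.53).

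Of 11 metalloproteinase inhibitors and activators in the table (12 listed), 1 fell with NBT, 0 passed with trametinib, and 1 rose and 1 fell with the combination. Of 14 cathepsin and cystatin genes (15 listed), 0 passed in any of the 3 comparisons with the control. Of 17 matrix substrate genes (20 listed), 1 of 16 tested rose with trametinib and 0 of 13 passed with NBT. With the combination 1 rose and 1 fell among 17 tested. The one that fell, COL4A2, a basement membrane collagen gene, went from 3849 reads in control cells to 1879 under cotreatment (-1.10). Short of the limits, the 13 substrate genes tested under NBT had a median log2 ratio of -0.65, against -0.01 over all genes. For the 16 tested under trametinib the median was 0.59 (all genes 0.08), and for the 17 tested under cotreatment -0.06 (all genes 0.05). Many of these genes had few reads, such as SPARC and ELN with at most 2, so the medians are uncertain. Ratios at such counts rest largely on the 0.5 added reads, as for ELN (0 reads in the control and 2 under trametinib, 2.31). Of the substrate genes with the most reads, FN1 (-0.14), COL4A1 (-0.58), COL4A2 (-0.63) and TNC (-0.62) were lower under trametinib, and HSPG2 (0.66) was higher.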
